A study of Mus musculus with 24 samples.

Results

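Lungs of selenium-sufficient (SeS) mouse pups kept in room air (RA) were compared at postnatal day 3 (PN3) and postnatal day 1 (PN1), the control step of a study of dietary selenium and neonatal oxygen. The comparison had 3 libraries at PN3 and 3 at PN1, of 24 libraries in all, and each library held the right lung of 1 pup. The genes described are the 12468 that had a mean of at least 5 CPM over these 6 libraries, out of 23831 genes tested and 57010 counted. CPM are read counts relative to the size of the library, scaled by TMM, a factor that evens out differences in composition between libraries.

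All 6 pups were C3H/HeN mice with no engineered allele. Their parents were placed at 3 weeks of age on a diet with 0.4 ppm sodium selenite, were bred after 3 weeks on it, and stayed on it. Dams were moved between the gas conditions every 24 h. SeS RA PN1 lungs were taken after 24 h in room air (FiO2 0.21) and SeS RA PN3 lungs after 72 h. Where other groups are named, SeD stands for pups of parents on the selenium-deficient diet and O2 for hyperoxia (FiO2 0.85), which began within 12 h of birth. The labels do not say whether pups of an age shared a litter, and the record gives all pups 1 date of death, so a difference in birth day or litter cannot be told apart from a difference in age. If pups of an age were littermates, the p-values below measure only the spread between such pups.

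The mouse lung is born in its saccular stage. In the first days of life the airspaces are still wide sacs, fluid has just been cleared, and the walls are about to be divided by septa that rise where PDGFRA-positive myofibroblasts lay down elastin and where the capillary bed folds in. The airways already carry ciliated cells, which beat with a ring of microtubule doublets and dynein motors, and club cells, which secrete protective proteins. Because whole lung was sequenced, fewer cells of a type and less RNA per cell cannot be told apart in any value below.

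Depth was 30.05 to 38.06 M counts in the 6 libraries. Genes of the Y chromosome were expressed in 1 of 3 libraries at each age, which was replicate 2 at both. Of the defining markers of lung, the surfactant gene Sftpc was at 8545 to 14450 CPM and the alveolar type 1 cell gene Ager at 1609 to 2109 CPM. Markers of neighbouring organs were also read. The 14 liver genes summed to 1075, 347 and 260 CPM at PN1 and to 368, 188 and 2988 CPM at PN3, so that PN3 replicate 3 stood far above the rest, and no liver gene passed the test. The 14 heart muscle genes summed to 1338, 545 and 879 CPM at PN1 and to 523, 307 and 683 CPM at PN3. The 11 thymus genes summed to 17.5 to 20.2 CPM at PN1 and to 57.2, 293 and 41.4 CPM at PN3, with replicate 2 far above the others.

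From PN1 to PN3 several genes of motile cilia fell, and single genes of the septal mesenchyme, the endothelium and dividing cells rose, as did T cell genes, most of all in 1 PN3 library. Among the 12468 genes, 101 were called higher at PN3 (0.81%) and 53 lower (0.425%), where a call needs an adjusted p under 0.05 in edgeR's quasi-likelihood test and a log2 fold change above 0.25 in size. Over all 23831 genes tested the counts were 163 higher (0.684%) and 78 lower (0.327%). Without a correction, 1505 of the 12468 genes had a p under 0.05 with a higher level at PN3 and 648 with a lower one. The median log2 fold change was 0.03, and the 5th and 95th percentiles were -0.39 and 0.46. In 2365 genes (19%) every PN3 library was above every PN1 library, and in 1680 genes (13.5%) every PN3 library was below.

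The calls rested on few libraries. Without PN1 replicate 1 none of the 154 calls was kept, the smallest adjusted p over these genes was 0.0622, and all 154 had an unadjusted p under 0.05. Without PN1 replicate 3, 1 call was kept. The number was 20 without PN3 replicate 2, 52 without PN3 replicate 1, 116 without PN3 replicate 3 and 135 without PN1 replicate 2. All 154 genes kept their direction in each of these 6 fits. DESeq2, which called more genes, kept 153 of the calls. A fit of only the 6 libraries compared kept 25, and library totals without TMM scaling kept 106. Of the 154 genes, 75 differed by more than 1 on the log2 scale, 43 of them higher and 32 lower. A gene low at 1 age can reach a mean of 5 CPM through the other. Among the 12183 genes with at least 5 CPM at both ages, 75 were called higher and 35 lower.

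**Figure D1:**
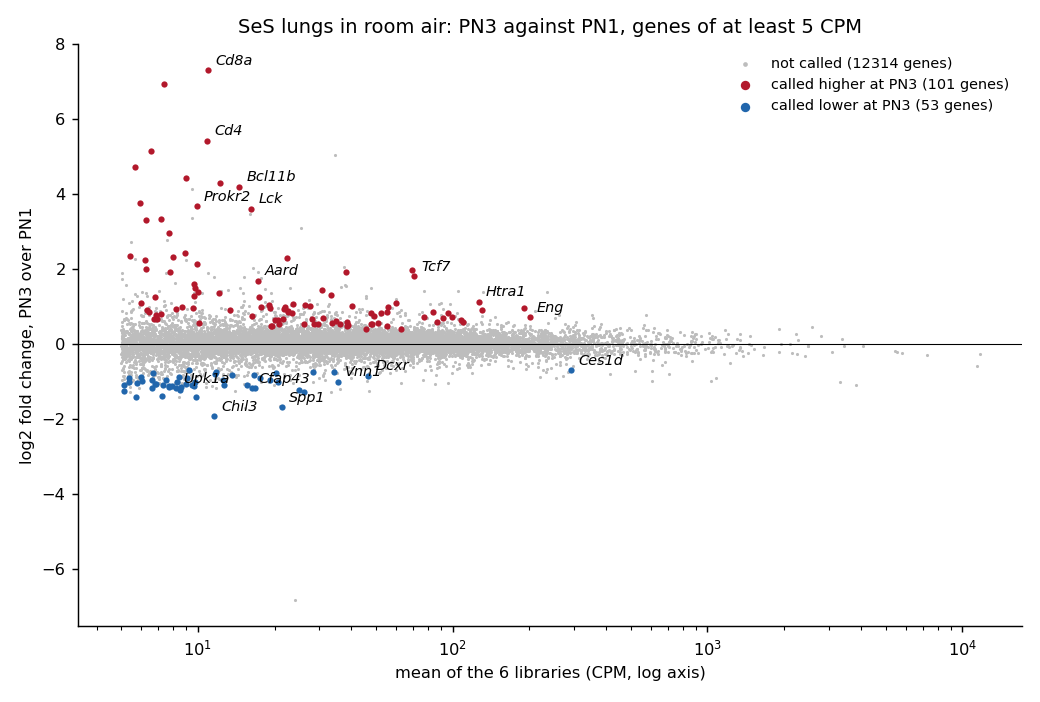
Log2 fold change of PN3 over PN1 in SeS RA lungs (vertical axis) against the mean level of the 6 libraries in CPM (horizontal log axis), for 12468 genes. Red points are the 101 genes called higher, blue points the 53 called lower and grey points the rest. Cd8a lies at the top, Chil3 and Spp1 at the bottom.

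Several genes of motile cilia fell. Of the 17 ciliated cell genes at 5 CPM or more, 5 were called lower and none higher. The 5 were Ccdc39, Tekt4, Cfap126, Ccdc113 and, named after its values were seen, Dynlrb2. All 17 had a log2 fold change below 0. In 15 every PN3 library was below every PN1 library, against 13.5% of all 12468 genes. The median log2 fold change of the list was -0.84, against 0.03 over all 12468 genes. Of the 16 list genes with at least 5 CPM at both ages, 4 were called lower. Without PN3 replicate 2 none of the 5 was called. A wider grouping by gene symbols of the motile cilium families was made after values had been seen and shares genes with the list, so it is a description and no separate evidence. It held 69 genes, of which 16 were called lower and none higher. Of the 52 with at least 5 CPM at both ages, 9 were called lower and 46 were below 0, with a median of -0.74.

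In the promoters of this group a short stretch of the X-box was looked for, the motif through which RFX factors drive ciliary genes. The letters GTTNCCAT on either strand were in 6 of 17 promoters of the ciliated list (35.3%) and in 9 of 45 promoters of the cilium families (20%), against 4.45% of all 27025 promoters. The motif was chosen after values had been seen, and a match is only a run of letters. Lrrc23, a radial spoke protein, and Spag17, a protein of the central pair of microtubules, are shown because both were among the 15 called genes with the lowest fold changes and carry a match, which is in capitals. The sequences are RefSeq's on GRCm38.p6, from 250 bases before to 50 after the gene's start. That of Lrrc23 is chr6:124779678-124779977 on the minus strand and that of Spag17 is chr3:99885167-99885466 on the plus strand.
Lrrc23: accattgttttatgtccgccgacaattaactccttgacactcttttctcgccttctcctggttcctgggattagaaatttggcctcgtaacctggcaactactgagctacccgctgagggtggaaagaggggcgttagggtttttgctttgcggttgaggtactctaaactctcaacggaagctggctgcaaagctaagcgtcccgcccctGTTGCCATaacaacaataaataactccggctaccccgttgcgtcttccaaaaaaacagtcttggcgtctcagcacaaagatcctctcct
Spag17: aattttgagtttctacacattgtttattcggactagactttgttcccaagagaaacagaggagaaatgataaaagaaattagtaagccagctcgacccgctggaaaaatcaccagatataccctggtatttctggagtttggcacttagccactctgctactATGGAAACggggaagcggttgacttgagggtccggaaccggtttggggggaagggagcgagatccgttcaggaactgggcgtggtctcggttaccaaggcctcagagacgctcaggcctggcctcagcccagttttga

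In Spag17 the capitals are the motif read on the other strand. Spag17 had 14.2, 10.8 and 10.4 CPM at PN1 and 5.24, 4.68 and 6.12 CPM at PN3 (log2 fold change -1.14, SE 0.23, adjusted p = 0.0204). Reads of Spag17 may be mixed with those of Wdr3, which overlaps it on the other strand, because the strand setting of the authors' counting is not given in the sources used here. For Lrrc23 the values were 30.2, 20.4 and 19.1 CPM at PN1 and 10.2, 9.18 and 11.7 CPM at PN3 (log2 fold change -1.16, SE 0.22, adjusted p = 0.0149). The groups were apart in both genes, and PN1 replicate 1 was the highest library in each.

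Cfap43, a protein of the axoneme (chr19:47725296-47907726 on GRCm39), had 26.3, 22.6 and 18.6 CPM at PN1 and 9.07, 9.54 and 11.3 CPM at PN3. Every PN1 library was above every PN3 library, 2.26-fold between the fitted means (log2 fold change -1.17, SE 0.20, adjusted p = 0.013). Its region also holds Sfr1 on the other strand and Itprip on the same strand, so part of its reads may be theirs. Tekt4, a tektin that stabilises the doublets, had 12.3, 8.83 and 8.83 CPM at PN1 and 3.9, 4.62 and 5.38 CPM at PN3 (log2 fold change -1.11, SE 0.23, adjusted p = 0.0228). The PN3 libraries all lay below the PN1 libraries.

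Of the heavy chains of the dynein arms in the wider grouping, Dnah8 alone was above 0. Its log2 fold change was 0.61 and it was not called (adjusted p = 0.164). The other Dnah genes lay between -0.76 and -1.16. Dnah12, an inner arm heavy chain, fell from 25.1, 21.1 and 17.6 CPM to 9.54, 9.69 and 10.8 CPM (log2 fold change -1.08, adjusted p = 0.0207). Dnah6, another inner arm heavy chain, fell from 31.8, 22 and 22.6 CPM to 12.8, 10.6 and 15.6 CPM (-0.97, adjusted p = 0.0441). Dnah8, Dnah12 and Dnah6 were picked after their values were seen. Dnah5, the outer arm heavy chain, had 31.4, 19.4 and 25.6 CPM at PN1 and 11.5, 10.5 and 15.8 CPM at PN3, and missed the threshold (log2 fold change -1.02, SE 0.28, adjusted p = 0.0824) although its groups did not overlap.

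Ccdc39, which with Ccdc40 sets the repeat along the doublet, fell from 22.3, 15.9 and 14.1 CPM to 9.71, 9.3 and 10.2 CPM (-0.84, adjusted p = 0.028). It overlaps Ttc14 on the other strand. Ccdc40 had 16.2, 10.1 and 15.2 CPM against 7.77, 6.96 and 11.8 CPM, its groups overlapped, and it did not pass (adjusted p = 0.288). Drc3, of the nexin-dynein regulatory complex, fell by 1.11 on the log2 scale and Spag6l, of the central apparatus, fell by 1.10 (adjusted p = 0.0385 and 0.0376). These 2 were also picked after their values were seen. Drc3 overlaps Tom1l2 on the other strand, at a higher count.

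Foxj1, the transcription factor that switches on the motile cilium genes, had 47.6, 31.8 and 40 CPM at PN1 and 19.4, 20.1 and 26.5 CPM at PN3. No PN3 library reached the lowest PN1 library, and the test missed the threshold (log2 fold change -0.86, SE 0.23, adjusted p = 0.0727). Tppp3, a tubulin-binding protein on the same list, stayed level at 251.8, 242 and 243 CPM against 226, 257 and 249.6 CPM (log2 fold change -0.01). Mcidas, which starts the multiciliated programme, was at 0.444 to 1.05 CPM in the 6 libraries and so below 5 CPM. Tppp3 and Mcidas were picked after their values were seen.

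Club cell genes stood lower at PN3 in all 8 members, with a median log2 fold change of -0.74, but none was called. Scgb1a1, the main club cell secretory protein, had 3288, 2183 and 2589 CPM at PN1 and 1695, 2046 and 2711 CPM at PN3. Its groups overlapped (log2 fold change -0.32, SE 0.22, adjusted p = 0.587). Cbr2, a carbonyl reductase, had 1734, 1020 and 1445 CPM against 638.8, 678 and 942 CPM with no overlap (-0.89, SE 0.27, adjusted p = 0.113), and Aldh1a1, a retinaldehyde dehydrogenase, had 453, 259 and 338 CPM against 162, 186 and 235 CPM (-0.85, adjusted p = 0.106). Replicate 1 was the highest and replicate 2 the lowest PN1 library for each of these genes. The same order held for the heart muscle sum given above, and whether the share of airway and hilar tissue in each piece took part in the result was not tested.

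The surface of the lung showed a like picture. All 11 mesothelial genes were below 0 with a median of -0.62, and none was called. In 10 of them every PN3 library was below every PN1 library, against 13.5% of all 12468 genes. Msln, mesothelin, had 609, 433 and 542 CPM at PN1 and 256, 340 and 317 CPM at PN3 (log2 fold change -0.80, SE 0.30, adjusted p = 0.217). Upk3b, a mesothelial uroplakin, had 229, 196 and 205 CPM against 122, 152 and 130 CPM (-0.64, adjusted p = 0.365).

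Of the 15 called genes with the lowest fold changes, 3 are known from urothelium. No list was set up for it. The 3 were grouped after their values were seen, so their number is not read as a result. Upk1a, a tetraspanin of the urothelial plaque (chr7:30302510-30312272), had 12.7, 10.8 and 10.7 CPM at PN1 and 4.44, 4.86 and 5.78 CPM at PN3. It had the smallest adjusted p of the whole comparison (log2 fold change -1.18, SE 0.15, adjusted p = 0.00294) and was the only gene kept in 5 of the 6 fits that left out a library, with 0.0622 in the remaining fit, the one without PN1 replicate 1. Upk3a, another uroplakin of the plaque, fell from 13.1, 9.21 and 9.12 CPM to 3.47, 4 and 4.5 CPM (-1.39, adjusted p = 0.013). Snx31, a sorting nexin of urothelial cells, fell from 12, 6.27 and 6.67 CPM to 2.37, 3.29 and 3.7 CPM (-1.41, adjusted p = 0.013). Upk3a and Snx31 were below 5 CPM in every PN3 library and reached the mean of 5 CPM through PN1. All 3 genes were apart between the ages, as were all 154 called genes.

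Spp1, osteopontin, a secreted matrix phosphoprotein, had 40, 29 and 28.9 CPM at PN1 and 11.7, 8.92 and 9.93 CPM at PN3, 3.20-fold between the fitted means (log2 fold change -1.68, SE 0.31, adjusted p = 0.0148). Fgfbp1, which frees FGFs from the matrix, fell from 44.8, 26.4 and 39.5 CPM to 9.94, 17.2 and 18.2 CPM (-1.28, adjusted p = 0.0398). Vnn1, a pantetheinase, was called at 45, 48.8 and 48.1 CPM against 20.7, 22.9 and 27 CPM (-1.01, SE 0.17, adjusted p = 0.013). The spread within an age was small beside the gap in Vnn1 and Spp1 and wider in Fgfbp1.

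Ces1d, a lung carboxylesterase, was 1 of 18 drug-metabolizing enzyme genes and the only one of them called, at 393, 331 and 362 CPM against 196, 216 and 254 CPM (log2 fold change -0.71, SE 0.14, adjusted p = 0.0174). The list as a whole had 15 of 18 genes below 0 and a median of -0.37. Dcxr, a carbonyl and sugar reductase, fell from 67.5, 51.1 and 61.3 CPM to 28, 33.5 and 38.8 CPM (-0.84, adjusted p = 0.0207).

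**Figure D2:**
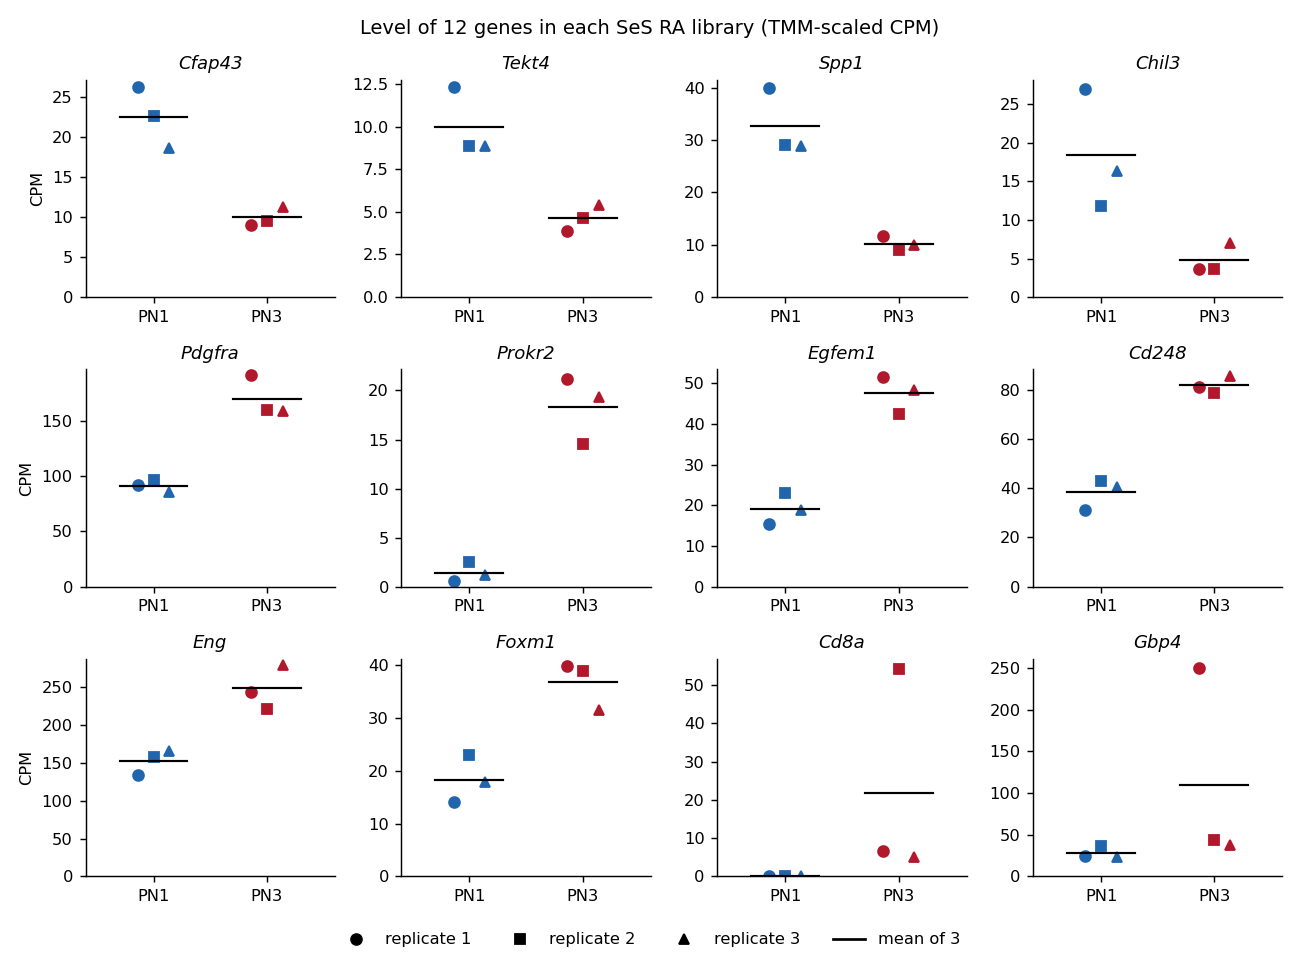
Level of 12 genes in CPM (vertical axes, from 0) in the 3 PN1 libraries (blue) and the 3 PN3 libraries (red) of SeS RA lungs, with a marker shape for each replicate and a black line at the mean. All 12 genes were called and their ages do not overlap, but in Cd8a PN3 replicate 2 and in Gbp4 PN3 replicate 1 stands far above the other libraries.

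Most alveolar epithelial genes on the lists were lower at PN3, and none was called. Of 23 alveolar type 2 cell genes 20 were below 0 and the median was -0.22. In 9 of them every PN3 library was below every PN1 library, against 13.5% of all 12468 genes. The list summed to 25280, 23690 and 25470 CPM at PN1 and to 17210, 18160 and 21350 CPM at PN3. Sftpc, surfactant protein C, had 14450, 13250 and 13410 CPM at PN1 and 8545, 9049 and 9972 CPM at PN3, apart in every library yet short of the threshold (log2 fold change -0.58, SE 0.24, adjusted p = 0.279). Sftpb, surfactant protein B, had 1109, 1332 and 1346 CPM against 1094, 1088 and 1495 CPM (-0.04, SE 0.25), and Sftpa1 had 966, 1089 and 1415 CPM against 956, 1072 and 1271 CPM (-0.07, SE 0.27). Hc, complement C5, was at 574, 685 and 686 CPM against 352, 363 and 469 CPM (-0.72, SE 0.19, adjusted p = 0.0679).

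Among 20 alveolar type 1 cell genes none was called and 15 were below 0, with a median of -0.24. Ager, the receptor that marks these cells, had 1993, 2039 and 2109 CPM at PN1 and 1609, 1873 and 1781 CPM at PN3 (log2 fold change -0.22, SE 0.22, adjusted p = 0.741). Igfbp2, a marker of fully differentiated type 1 cells, went the other way at 69.4, 53.5 and 64.9 CPM against 108, 110 and 144 CPM (0.94, SE 0.48, adjusted p = 0.416). The standard error of Igfbp2 comes from the fit of all groups and is wide.

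Of 18 genes of lung fluid transport, Aqp4, a water channel of the basolateral membrane, was the only one called. It fell from 32.9, 21.3 and 29 CPM to 11.6, 12.7 and 16.7 CPM (log2 fold change -1.02, SE 0.24, adjusted p = 0.0451). The epithelial sodium channel, which draws fluid out of the airspace at birth, was not called in any subunit. Scnn1a had 365, 246 and 344 CPM against 184, 270 and 268 CPM, Scnn1b had 167, 108 and 152 CPM against 77.2, 97.9 and 102 CPM, and Scnn1g had 216, 158 and 215 CPM against 151, 161 and 183 CPM. Their log2 fold changes were -0.40, -0.62 and -0.25, with adjusted p of 0.584, 0.205 and 0.712. Atp1b1, the beta subunit of the sodium pump, had 328, 218 and 291 CPM against 144, 181 and 196 CPM (-0.68, SE 0.19, adjusted p = 0.094).

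Glucocorticoid-responsive genes were below 0 in 16 of 18 cases with a median of -0.35, and none was called. Mt1 and Mt2, metallothioneins that also answer to zinc, had the largest differences of the list. Mt2 had 39, 27.9 and 28.9 CPM at PN1 and 7.31, 11.4 and 11.5 CPM at PN3 (log2 fold change -1.66, SE 0.54, adjusted p = 0.143). Fkbp5, a sensitive target of the receptor, was at 33.5, 26.5 and 28.2 CPM against 29.3, 46.2 and 31.2 CPM and overlapped.

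**Figure D3:**
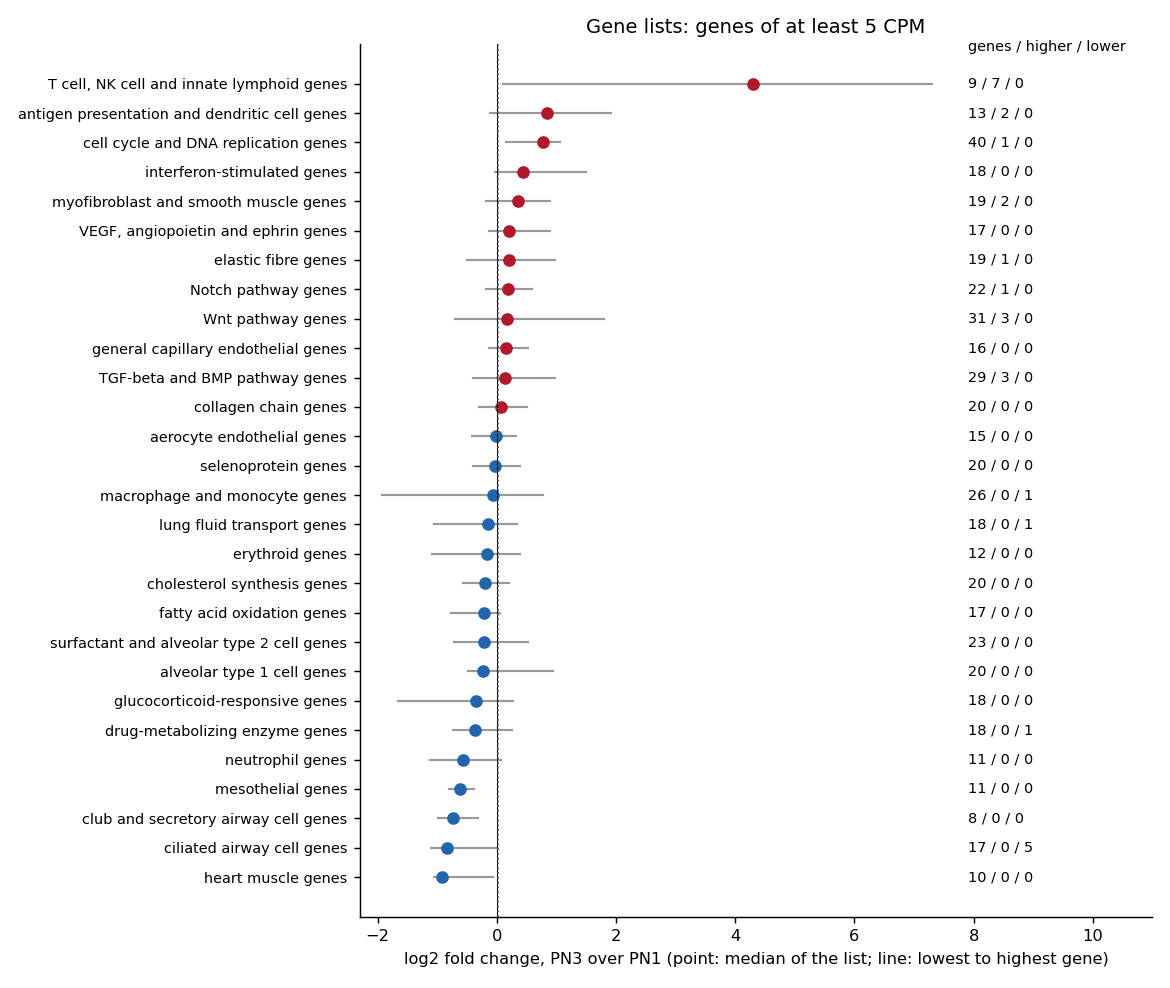
Median log2 fold change of PN3 over PN1 in SeS RA lungs for selected gene lists (points), with a line from its lowest to its highest gene and only genes of at least 5 CPM used. The heart muscle (-0.92), ciliated (-0.84), club cell (-0.74) and mesothelial (-0.62) medians lie at the low end. The T cell point (4.30, and 2.58 without PN3 replicate 2) is of 9 genes, of which 1 had 5 CPM at both ages, and is not read as a result.

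The mesenchyme of the septa rose in a few genes. Of 19 myofibroblast and smooth muscle genes, 2 were called higher, Pdgfra and Myocd, none lower, and the median was 0.35 with 14 of 19 above 0. Pdgfra, the receptor that marks the myofibroblasts at septal tips (chr5:75311994-75358876), had 92.4, 96.3 and 85.3 CPM at PN1 and 191, 160 and 159 CPM at PN3. The increase was 1.86-fold with no overlap (log2 fold change 0.90, SE 0.15, adjusted p = 0.013), and the call held without PN3 replicate 1 and without PN3 replicate 2. Myocd, the coactivator of smooth muscle genes, rose from 5.28, 5.07 and 5.67 CPM to 8.74, 7.38 and 9.45 CPM (0.67, SE 0.15, adjusted p = 0.0313). Acta2, smooth muscle actin, had 475, 432 and 528 CPM against 846, 539 and 529 CPM, where PN3 replicate 1 stood alone (0.41, SE 0.29, adjusted p = 0.6).

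Prokr2, a receptor for prokineticins, was close to 0 at PN1 and even across the PN3 libraries. It was below 5 CPM in every PN1 library and reached the mean of 5 CPM through PN3. Its level was 0.6, 2.48 and 1.2 CPM at PN1 and 21.1, 14.6 and 19.3 CPM at PN3, 12.8-fold higher (chr2:132179653-132227368, log2 fold change 3.68, SE 0.50, adjusted p = 0.00441). Aard and Egfem1 were chosen after their values were seen. Aard rose from 5.58, 11.6 and 7.24 CPM to 26.4, 27.2 and 25.1 CPM (1.69, SE 0.27, adjusted p = 0.013), and Egfem1 from 15.4, 23.2 and 18.8 CPM to 51.6, 42.6 and 48.4 CPM (1.31, SE 0.19, adjusted p = 0.00692). Egfem1 and Prokr2 kept their calls without PN3 replicate 1 and without PN3 replicate 2 and reached adjusted p of 0.0876 and 0.0638 without PN1 replicate 1.

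Several genes of mesenchymal cells and their matrix, chosen after their values were seen, rose with no overlap. Cd248, endosialin of fibroblasts and pericytes, went from 31.3, 43 and 40.4 CPM to 81.1, 78.5 and 85.5 CPM (1.09, SE 0.18, adjusted p = 0.013). Tenm4, a teneurin, rose from 10.2, 22.4 and 16.9 CPM to 51.8, 37.7 and 44.9 CPM (1.44, adjusted p = 0.0165). Col24a1, a fibrillar collagen, rose from 4.98, 6.81 and 5.13 CPM to 15.6, 12.4 and 12.8 CPM (1.27, adjusted p = 0.013). In the same group Prelp, a small leucine-rich proteoglycan, and Pdlim3, a muscle scaffold protein, had log2 fold changes of 1.05 and 0.85, with adjusted p of 0.0369 and 0.0219.

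Elastic fibre genes were mixed. Only Ltbp2, a latent TGF-beta binding protein of the microfibril, was called of 19, at 90.4, 152 and 144 CPM against 256, 226 and 276 CPM (log2 fold change 0.97, SE 0.20, adjusted p = 0.0249). Eln, elastin itself, was at 4370, 3389 and 4689 CPM against 3691, 3994 and 4232 CPM, and the ages overlapped (-0.06, SE 0.18). Lox, the crosslinking oxidase, had 257, 196 and 265 CPM against 164, 184 and 162 CPM (-0.50, SE 0.21, adjusted p = 0.306), and its relative Loxl2 had 88.8, 103 and 108 CPM against 149, 136 and 134 CPM (0.48, SE 0.15, adjusted p = 0.115). None of 20 collagen chain genes and none of 19 matrix fibroblast genes was called, with medians of 0.08 and -0.18. Tcf21, the transcription factor of the lipofibroblast line, was at 344, 255 and 298 CPM against 209, 243 and 173 CPM (-0.52, SE 0.17, adjusted p = 0.143).

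Htra1, a secreted protease that cuts matrix and IGF-binding proteins, was the only gene called of 15 in the insulin-like growth factor list. It rose from 63.7, 92.1 and 82.8 CPM to 184, 166 and 171 CPM, 2.18-fold (log2 fold change 1.12, SE 0.21, adjusted p = 0.0167). Igf1 had 124, 136 and 128 CPM against 178, 152 and 156 CPM (0.32, SE 0.21, adjusted p = 0.571), apart in every library but not called. Ibsp, bone sialoprotein, chosen after its values were seen, rose from 1.65, 2.19 and 1.51 CPM to 7.24, 8.92 and 10.9 CPM (2.34, SE 0.52, adjusted p = 0.0358). Ibsp was below 5 CPM in every PN1 library and reached the mean of 5 CPM through PN3. It lies beside Spp1 on chromosome 5, which fell.

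Endothelial lists differed from each other and had no call. Of 16 general capillary genes, 14 were above 0, against 55.4% of all 12468 genes, with a median of 0.15. Plvap, of the diaphragms of capillary pores, had 126, 147 and 159 CPM against 199, 183 and 230 CPM (log2 fold change 0.50, SE 0.15, adjusted p = 0.106). The 15 aerocyte genes, which mark the capillary cells laid against the airspace, had 7 above 0 and 8 below, with a median of -0.02. Of 17 VEGF, angiopoietin and ephrin genes 13 were above 0 and none was called. Vegfa itself was level at 573, 620 and 568 CPM against 531, 568 and 584 CPM. Angpt2, the ligand of remodelling vessels, came nearest to a call at 12.7, 13.9 and 13.9 CPM against 29.9, 21.5 and 24 CPM (0.90, SE 0.22, adjusted p = 0.0558).

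The TGF-beta and BMP list held 3 called genes of 29, all higher, Eng, Bmp6 and Ltbp2, with a median of 0.14. Eng, endoglin, the TGF-beta coreceptor of endothelial cells (chr2:32535543-32574661), had 134, 157 and 166 CPM at PN1 and 244, 222 and 280 CPM at PN3 (1.63-fold, log2 fold change 0.71, SE 0.16, adjusted p = 0.0383). Bmp6, a BMP ligand, rose from 33.1, 34.2 and 36.2 CPM to 57.9, 51.6 and 74.8 CPM (0.83, SE 0.17, adjusted p = 0.0207), with Txndc5 overlapping it on the other strand at a higher count. The ligand Tgfb2 had 80.8, 120 and 112 CPM against 151, 161 and 153 CPM and was not called (0.57, adjusted p = 0.144).

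In the Notch list 18 of 22 genes were above 0, against 55.4% of all 12468 genes, and the median was 0.18. In 11 every PN3 library was above every PN1 library, against 19% of all 12468 genes. Notch1, the receptor of arterial and immune cells, was the only call, at 71.8, 94.4 and 97.6 CPM against 122, 128 and 145 CPM (log2 fold change 0.58, SE 0.11, adjusted p = 0.0174). Notch4, its endothelial relative, had 63, 81.7 and 73.1 CPM against 101, 94.9 and 116 CPM (0.52, adjusted p = 0.106), and the ligand Dll4 had 30.5, 33.2 and 37.4 CPM against 53.9, 43.6 and 55.4 CPM (0.59, adjusted p = 0.178). Hes1, a direct target, was level at 64.7, 80.4 and 65.6 CPM against 63, 77.5 and 71.9 CPM.

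Vessel genes outside the lists, chosen after their values were seen, rose by like amounts. P2ry14, a receptor for UDP-sugars, went from 63.4, 74.9 and 70.4 CPM to 127, 114 and 127 CPM (log2 fold change 0.82, SE 0.14, adjusted p = 0.013). Unc5b, a netrin receptor of sprouting vessels, went from 51.5, 60.3 and 62 CPM to 95.7, 85.6 and 106 CPM (0.72, adjusted p = 0.0207). Stab1, a scavenger receptor of endothelium and macrophages, and Sema3g, an arterial semaphorin, rose by 0.69 and 0.64 on the log2 scale (adjusted p = 0.0273 and 0.0492). Stab1 overlaps Nt5dc2 on the other strand.

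Of 31 Wnt genes 3 were called higher, Wnt11, Tcf7 and Lef1, and none lower. Wnt11, a ligand of the planar polarity branch, rose from 11.1, 14.2 and 13.9 CPM to 28.9, 24.4 and 22.3 CPM (log2 fold change 0.95, SE 0.20, adjusted p = 0.0253). Axin2, the usual target of beta-catenin signalling, was at 36.2, 46.5 and 43.3 CPM against 51.6, 46.7 and 45.3 CPM and overlapped (0.19, SE 0.16). Tcf7 and Lef1 encode partners of beta-catenin that developing T cells express strongly, and in both the highest library was PN3 replicate 2. Tcf7 had 25.1, 37.7 and 31.3 CPM at PN1 and 68.7, 198 and 61.3 CPM at PN3, and its log2 fold change went from 1.80 to 1.06 without that library (adjusted p = 0.053).

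Genes of the cell division list lay higher at PN3, and 1 of the 40 was called. All 40 genes of this cell cycle and DNA replication list were above 0, against 55.4% of all 12468 genes. In 31 of them every PN3 library was above every PN1 library, against 19% of all 12468 genes. The median log2 fold change of the list was 0.77, against 0.03 over all genes. The 40 genes were read in the same 6 libraries, so these counts are not separate evidence. Only Foxm1 passed the test over all genes, and it did not without PN3 replicate 1 (adjusted p = 0.118) or without PN3 replicate 2 (adjusted p = 0.119). Foxm1, the transcription factor of the G2 and M phases (chr6:128339518-128353147), rose from 14, 23 and 17.8 CPM to 39.9, 39 and 31.5 CPM (2.01-fold, log2 fold change 1.01, SE 0.22, adjusted p = 0.0279), with Rhno1 overlapping it on the other strand. The sum of the 40 genes was 1838, 2654 and 2162 CPM at PN1 and 3619, 3619 and 2915 CPM at PN3.

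Mki67, the proliferation antigen, had 209, 336 and 242 CPM at PN1 and 476, 486 and 372 CPM at PN3 (log2 fold change 0.76, SE 0.29, adjusted p = 0.24). Top2a, the topoisomerase of mitotic chromosomes, had 147, 256 and 176 CPM against 357, 375 and 255 CPM and overlapped by a narrow margin (0.77, SE 0.25, adjusted p = 0.148). The spread within PN1 was wide in these genes, with replicate 2 high and replicate 1 low. The order was the reverse of that in the club cell genes given above, in which replicate 1 was highest and replicate 2 lowest.

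Mitotic genes off the list, chosen after their values were seen, were called. Aspm, of the spindle poles, rose from 28.8, 50.4 and 33.7 CPM to 83, 74.6 and 65.2 CPM (log2 fold change 0.98, SE 0.23, adjusted p = 0.0429). Prr11, a gene of late cell cycle expression, rose from 8.99, 17 and 11.3 CPM to 26.1, 28.1 and 22.1 CPM (1.03, SE 0.23, adjusted p = 0.036). Spc24, of the kinetochore, and Troap, a spindle protein, rose by 0.99 and 1.10 (adjusted p = 0.035 and 0.0457). Of 14 genes on the list of CDK inhibitors and quiescence, 9 were below 0, the median was -0.16 and Cdkn2c was the only call. Cdkn2c, an inhibitor of CDK4 and CDK6 that dividing cells also express, rose from 30.6, 42.5 and 40 CPM to 76.1, 68.8 and 55.8 CPM (0.82, SE 0.20, adjusted p = 0.0492).

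Promoters of this group often hold 2 known elements, the CCAAT box bound by NF-Y and the CHR, TTTGAA, through which G2 and M phase genes are timed. CCAAT on either strand was in 23 of 30 matched promoters of the list (76.7%), against 37.9% of all promoters. TTTGAA was in 14 of the 30 (46.7%), against 18.1%. Among promoters of genes of at least 5 CPM the shares were 38.4% for CCAAT and 11.9% for TTTGAA. In 76 promoters of the genes called higher they were 30.3% and 11.8%. Both elements are known from cell cycle genes, so the counts describe the list and not the age step. Aspm and Prr11 are off the list. The promoters of Aspm, Prr11 and Mki67 are shown with every match in capitals, where ATTGG is CCAAT on the other strand. They lie on GRCm38.p6 at chr1:139454523-139454822 on the plus strand, chr11:87108665-87108964 on the minus strand and chr7:135716330-135716629 on the minus strand.
Aspm: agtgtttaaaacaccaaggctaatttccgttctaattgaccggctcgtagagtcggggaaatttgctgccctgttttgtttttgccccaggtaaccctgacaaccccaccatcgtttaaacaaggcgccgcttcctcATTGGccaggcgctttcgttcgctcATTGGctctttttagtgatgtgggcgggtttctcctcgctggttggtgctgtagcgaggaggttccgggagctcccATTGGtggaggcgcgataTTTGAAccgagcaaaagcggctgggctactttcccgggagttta
Prr11: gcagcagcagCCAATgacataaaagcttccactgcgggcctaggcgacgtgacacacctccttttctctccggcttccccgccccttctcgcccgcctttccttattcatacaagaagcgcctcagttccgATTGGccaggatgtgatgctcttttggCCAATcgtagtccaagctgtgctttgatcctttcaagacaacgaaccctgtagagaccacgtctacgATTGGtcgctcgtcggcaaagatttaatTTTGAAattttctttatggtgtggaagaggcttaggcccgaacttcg
Mki67: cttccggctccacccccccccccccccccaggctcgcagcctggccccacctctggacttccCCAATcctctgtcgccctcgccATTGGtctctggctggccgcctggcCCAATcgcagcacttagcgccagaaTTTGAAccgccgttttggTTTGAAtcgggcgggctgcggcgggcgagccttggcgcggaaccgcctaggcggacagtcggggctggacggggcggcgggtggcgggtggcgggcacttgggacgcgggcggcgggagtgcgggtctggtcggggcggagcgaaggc

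Aspm holds 3 CCAAT and 1 TTTGAA, Prr11 holds 4 and 1, and Mki67 holds 3 and 2.

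The highest fold changes of the comparison were in T cell genes, and in them 1 library carried most of the signal. Cd8a, a T cell coreceptor (chr6:71350411-71356157), had 5, 2 and 7 reads at PN1 and 196, 1825 and 187 reads at PN3, that is 0.15, 0.057 and 0.199 CPM against 6.54, 54.1 and 4.98 CPM. Every PN3 library was above every PN1 library, and PN3 replicate 2 was far above the other 2. The log2 fold change was 7.30 (SE 1.41, adjusted p = 0.0174) and became 5.38 without PN3 replicate 2 (adjusted p = 0.0936). Cd4, the other coreceptor, had 0.51, 0.456 and 0.513 CPM against 9.21, 48.5 and 6.02 CPM (5.42, adjusted p = 0.0138, and 0.064 without that library).

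Of 20 genes on the T cell, NK cell and innate lymphoid list, 9 reached a mean of 5 CPM, and 7 were called higher. All 7 were below 5 CPM in every PN1 library and reached the mean through PN3, so their number is not read as a result. Lck, the kinase of the T cell receptor, had 2.19, 2.31 and 2.82 CPM against 14.5, 64.4 and 10.7 CPM (log2 fold change 3.61, adjusted p = 0.013). Bcl11b, the factor that commits cells to the T lineage, had 0.75, 1.82 and 1.91 CPM against 10.5, 63.2 and 8.71 CPM (4.20, adjusted p = 0.013). Without PN3 replicate 2 none of the list was called. Ncr1, a receptor of NK cells, overlapped between the ages at 0.96, 2.76 and 2.05 CPM against 3.04, 2.34 and 3.01 CPM (adjusted p = 0.68).

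Genes that immature T cells of the thymus use were high in the same library. Rag1, which cuts the receptor genes of T and B cells, had 61, 81 and 66 reads at PN1 and 649, 5515 and 576 reads at PN3 and missed the threshold (adjusted p = 0.0563). Dntt, which adds bases at the joints, had 1, 3 and 4 reads against 88, 785 and 57 reads (log2 fold change 6.84, SE 1.32, adjusted p = 0.0174, with a mean just under 5 CPM). Ptcra, the surrogate receptor chain, had 1, 0 and 0 reads against 13, 89 and 13 reads (adjusted p = 0.0529). In each of these genes replicates 1 and 3 of PN3 were also above all of PN1. The part of thymus tissue in the T cell result was not tested. Genes chosen after their values were seen, Satb1 and Thy1, which lymphocytes share with other cells, had 31.3, 123 and 27.2 CPM and 15, 79.9 and 16.2 CPM at PN3, against 14.2, 18.4 and 15.4 CPM and 8.79, 6.98 and 7.06 CPM at PN1.

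A library of PN3 also stood apart for genes induced by interferon-gamma, and it was another one. Gbp4, a guanylate-binding protein, had 24.2, 36 and 23.9 CPM at PN1 and 250, 43.5 and 37.6 CPM at PN3, with replicate 1 alone at the high level (log2 fold change 1.98, SE 0.47, adjusted p = 0.0467). Without PN3 replicate 1 the value was 0.53 (adjusted p = 0.485). Gbp5 had 2.7, 3.11 and 2.54 CPM against 37.1, 3.88 and 4.08 CPM, and Cd274, the checkpoint ligand PD-L1, had 4.89, 4.87 and 4.61 CPM against 29.3, 6.72 and 7.3 CPM. Gbp4 and Cd274 were chosen after their values were seen. Gbp4 overlaps Gbp9 on the same strand, and Cd274 overlaps Plgrkt on the other strand. The 22 interferon-stimulated genes summed to 416 to 593 CPM at PN1 and to 1047, 520 and 458 CPM at PN3. Of the 18 at 5 CPM or more none was called, and their median log2 fold change went from 0.44 to -0.05 without that library.

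Antigen presentation genes were read next. Of 13 genes 12 were above 0, and H2-Eb1 and Ciita were called. Both were below 5 CPM in every PN1 library and reached the mean through PN3, and of the 10 genes with at least 5 CPM at both ages none was called. The median of the 13 went from 0.84 to 0.43 without PN3 replicate 1. H2-Eb1, an MHC class II chain, had 3.96, 4.9 and 4.96 CPM against 7.24, 9.1 and 8.47 CPM with replicate 1 the lowest at PN3 (log2 fold change 0.84, SE 0.18, adjusted p = 0.0297). H2-Eb1 overlaps H2-Aa and Ciita overlaps Dexi, each on the other strand. Ciita, the activator of class II genes, had 2.25, 4.02 and 3.5 CPM against 25.9, 4.86 and 6.26 CPM and lost its call without PN3 replicate 1 (adjusted p = 0.443). Tap2, a peptide transporter chosen after its values were seen, had 21.4, 32.5 and 25.8 CPM against 72.7, 49.5 and 38.8 CPM and kept it (1.01, adjusted p = 0.013, and 0.049 without PN3 replicate 1).

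**Figure D4:**
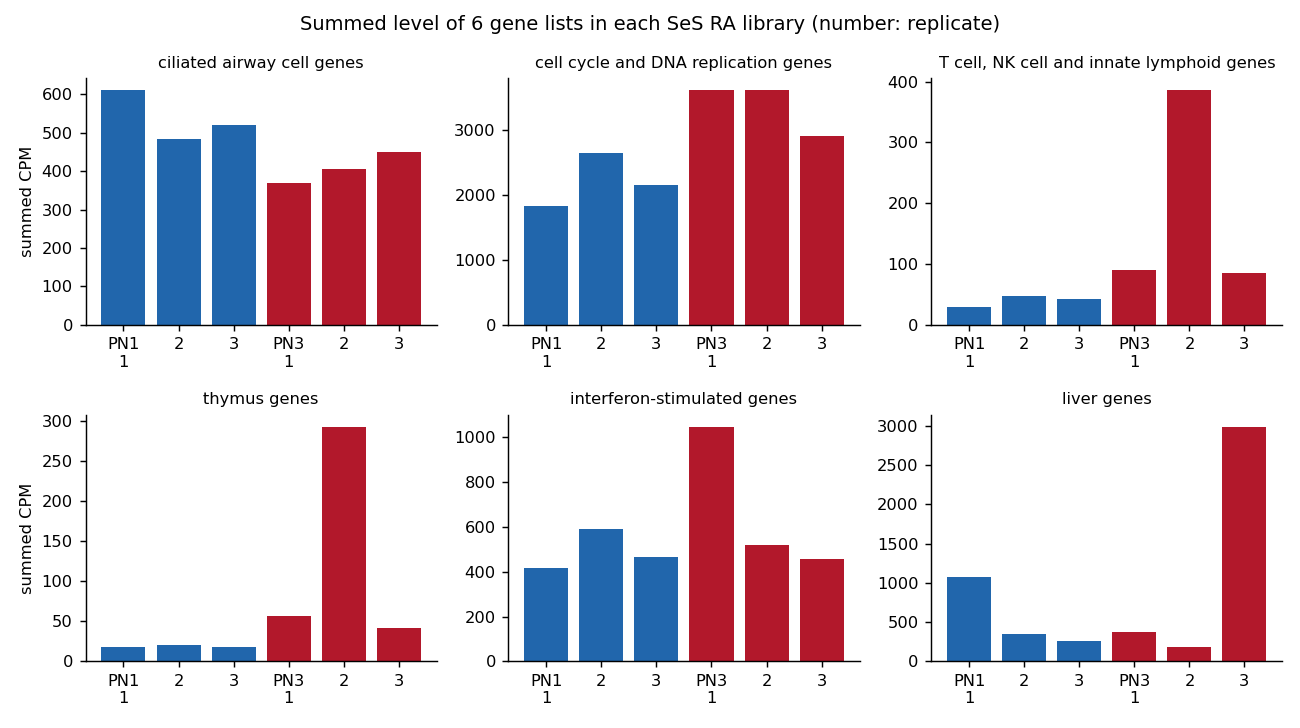
Summed level of 6 gene lists in CPM (vertical axes, from 0) in each SeS RA library, PN1 in blue and PN3 in red. The cell cycle sum lies at 1838 to 2654 CPM at PN1 and 2915 to 3619 CPM at PN3, while the thymus sum is raised most in PN3 replicate 2 (293 CPM) and the interferon sum in PN3 replicate 1 (1047 CPM).

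Of 26 macrophage and monocyte genes 1 was called, Chil3, whose mean at PN3 was below 5 CPM. Of the 23 with at least 5 CPM at both ages none was called. Chil3, the chitinase-like protein Ym1, fell from 27, 11.8 and 16.3 CPM to 3.64, 3.7 and 7.03 CPM (3.82-fold between the fitted means, log2 fold change -1.93, SE 0.41, adjusted p = 0.0266). Csf1r, which all macrophages carry, had 91, 85.8 and 95.4 CPM against 105, 103 and 116 CPM (0.25, SE 0.09, adjusted p = 0.22). Below 5 CPM, Folr2 and Cd163, receptors of perivascular and interstitial macrophages, were called higher at 0.96, 1.48 and 1.14 CPM against 3.07, 2.75 and 2.5 CPM and at 2.79, 2.96 and 1.97 CPM against 6.31, 4.53 and 4.93 CPM. Marco, of alveolar macrophages, overlapped at 24.8, 20.3 and 19.7 CPM against 14, 17.8 and 38.1 CPM.

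Other blood cells had no call. The 12 erythroid genes at 5 CPM or more had a median of -0.16. The sum over all 21 matched erythroid genes was 9333, 14050 and 13110 CPM at PN1 and 7189, 7693 and 4315 CPM at PN3. The adult globin Hbb-bs had 4028, 5935 and 5670 CPM against 2791, 3082 and 1509 CPM (log2 fold change -1.08, SE 0.41, adjusted p = 0.231). Of 11 neutrophil genes 10 were below 0, and S100a8, of the granules' calprotectin, had 73.1, 52.5 and 79 CPM against 34.7, 62.1 and 41.3 CPM (-0.57, SE 0.33).

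Further lists had no call and a median near that of all genes. These were 20 selenoprotein genes (median log2 fold change -0.03), 23 antioxidant and NRF2 target genes (-0.13), 18 p53 target genes (0.06), 27 nuclear genes of the respiratory chain (-0.08), 16 FGF pathway genes (0.08) and 14 Hedgehog pathway genes (0.14). Gpx1, a selenoprotein that reduces peroxides, had 348, 375 and 403 CPM at PN1 and 280, 352 and 272 CPM at PN3 (-0.32, SE 0.18, adjusted p = 0.471). Txnrd1, thioredoxin reductase, had 72.6, 72.6 and 77.3 CPM against 91.2, 81.1 and 89 CPM (0.23, SE 0.09, adjusted p = 0.249). Of 20 cholesterol synthesis genes 17 were below 0 and none was called (median -0.21).

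The same age step was read in the SeD RA and SeS O2 lungs, which share no library with the comparison above but share its fitted dispersion. In SeD RA, 1133 of the 12468 genes were called higher (9.09%) and 138 lower (1.11%). In SeS O2, 8 were called higher (0.0642%) and 19 lower (0.152%). The SeD RA total of 1271 became 137 without SeD RA PN1 replicate 2, 365 without SeD RA PN3 replicate 2, 687 without SeD RA PN3 replicate 3 and 2296 without SeD RA PN1 replicate 3, and the SeS O2 total of 27 lay between 7 and 18 when a library of it was left out. Of the 101 genes called higher in SeS RA, 94 were above 0 in SeD RA and 79 in SeS O2, with medians of 0.94 in SeS RA, 0.54 in SeD RA and 0.21 in SeS O2. All 53 genes called lower were below 0 in both, with medians of -1.03, -0.58 and -0.56. These genes were selected by their change in SeS RA, so the sizes of the medians cannot be compared between the settings. Over all 12468 genes, 66.8% had the sign of SeS RA in SeD RA and 51.3% in SeS O2. No gene was called for a difference in the age step between SeS RA and SeD RA or between SeS RA and SeS O2 in edgeR. At an unadjusted p under 0.05 there were 868 and 1679 genes, and DESeq2 called 143 and 56. Without SeD RA PN1 replicate 3, 105 genes differed in step between SeS RA and SeD RA. SeS O2 PN1 replicate 2 carries an FiO2 of 0.21 in its record and was placed by its title.

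**Figure D5:**
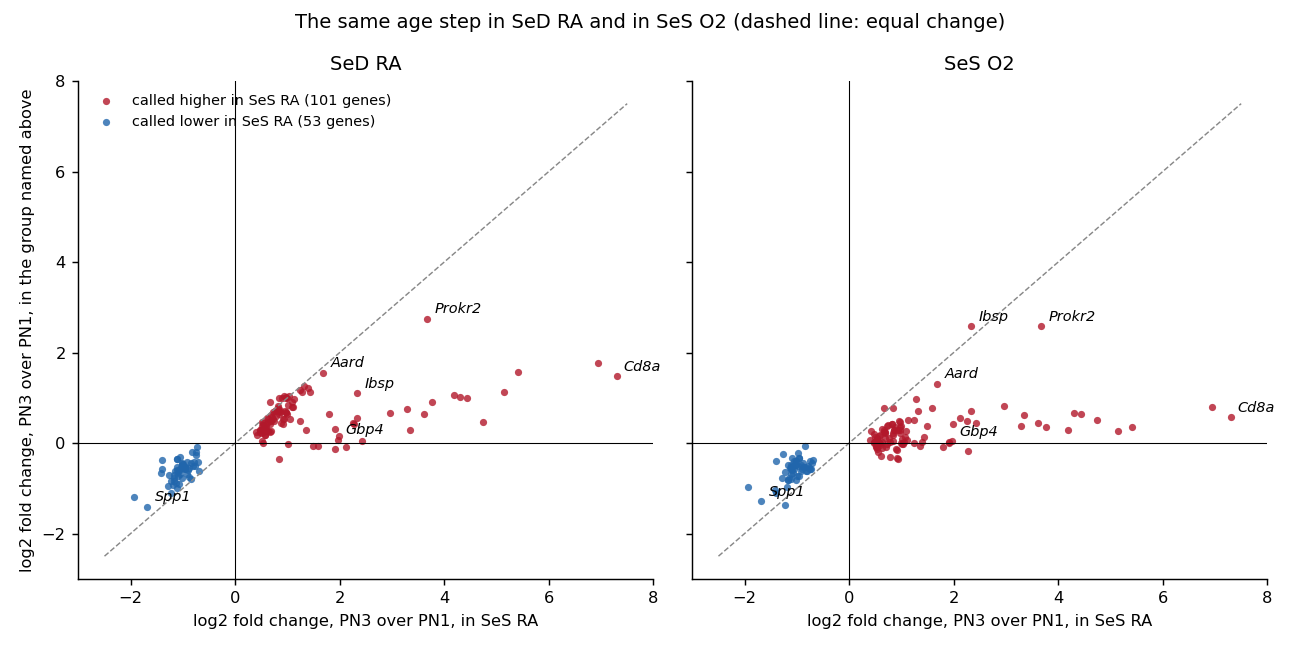
Log2 fold change of PN3 over PN1 in SeD RA (left) and SeS O2 (right) against that in SeS RA, for the 154 called genes. Red points are the genes called higher in SeS RA, blue points those called lower, and the dashed line is at equal change. Genes called lower in SeS RA lie below 0 in both panels, and 79 of the 101 called higher lie above 0 in SeS O2.

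Of the 53 genes called lower in SeS RA, 25 were also called lower in SeD RA and 1, Upk1a, in SeS O2. Of the 101 called higher, 50 were called higher in SeD RA and 3 in SeS O2. Spp1 had 36.9, 23.8 and 45.7 CPM at PN1 and 11, 16.2 and 12.9 CPM at PN3 in SeD RA, and 58.9, 71.9 and 69.9 CPM and 35.2, 22.5 and 24.5 CPM in SeS O2 (adjusted p = 0.00559 and 0.087). Upk1a had 9.11, 6.58 and 6.58 CPM and 4.02, 3.9 and 3.82 CPM in SeD RA, and 12.2, 11.4 and 13.4 CPM and 6.19, 6.53 and 6.18 CPM in SeS O2. Upk1a passed the test in each (adjusted p = 0.00472 and 0.00608). Cfap43 had 19.2, 16.8 and 14 CPM and 13.4, 7.64 and 8.01 CPM in SeD RA, and 25.9, 32.1 and 26.2 CPM and 22.4, 20.1 and 17.8 CPM in SeS O2, with no overlap in either. Its adjusted p were 0.0104 and 0.417.

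Of the genes that rose, Prokr2 did so in all 3 settings, to 11.5, 25.1 and 24.3 CPM at PN3 in SeD RA from 1.34, 3.35 and 4.35 CPM, and to 7.01, 10.4 and 7.94 CPM in SeS O2 from 1.55, 0.769 and 1.91 CPM. Pdgfra had 71.9, 85.8 and 100.1 CPM at PN1 and 136, 178 and 198 CPM at PN3 in SeD RA, but 93.3, 87.9 and 95.3 CPM and 75.6, 100.3 and 75.8 CPM in SeS O2. The difference in its age step between SeS RA and SeS O2 was 1.03 on the log2 scale (SE 0.21) and missed the threshold over all genes (adjusted p = 0.234, the smallest of that test). Eng had 158, 163 and 165 CPM at PN3 in SeS O2 against 175, 179 and 161 CPM at PN1 (difference in step 0.79, SE 0.23, adjusted p = 0.29).

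The cell cycle sum was 1921, 2138 and 2595 CPM at PN1 and 2987, 3850 and 3796 CPM at PN3 in SeD RA, where 24 of the 40 genes were called higher. In SeS O2 it was 2966, 2122 and 2403 CPM and 2373, 3064 and 2614 CPM, with a median log2 fold change of 0.05. Foxm1 had a difference in step of 1.04 between SeS RA and SeS O2 (SE 0.30, adjusted p = 0.293). The thymus sum ranged from 17 to 63.5 CPM over the 12 libraries of these settings, highest in SeD RA PN3 replicate 1 and next in SeS O2 PN3 replicate 1 (41.2 CPM), against 293 CPM in SeS RA PN3 replicate 2. Cd8a was at 8.6, 1.45 and 4.1 CPM in SeD RA PN3 and at 4.26, 1.13 and 0.758 CPM in SeS O2 PN3. No library of the other 2 settings had the Gbp4 level of SeS RA PN3 replicate 1, since Gbp4 lay between 24.1 and 41.9 CPM in those 12 libraries.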

How the data were processed

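Lung RNA of 24 pups was sequenced as poly(A) stranded libraries, in 8 groups of 3 libraries. The authors used FastQC, Trimmomatic, HISAT2 on GRCm39, featureCounts and DESeq2, and the raw count per gene they deposited, for 57010 genes, was used here. Their strand setting is not given in the sources used here. Deposited sheets of normalized values, fold changes and p-values were not used.

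Groups came from the sample titles. Genes passing filterByExpr (minimum count 10, minimum total 15) were fitted with 8 group means over all 24 libraries in edgeR 4.0.16 (R 4.3.3) with TMM scaling and the quasi-likelihood test, with 16 residual degrees of freedom and a prior count of 0.125. The p-values were adjusted over all 23831 genes tested (Benjamini-Hochberg). A call needed an adjusted p under 0.05 and a log2 fold change above 0.25 in size. SE is the absolute log2 fold change over the square root of F. The common biological coefficient of variation was 0.263. Depth was 25.99 to 50.44 M counts, and replicates of a group differed beyond sampling noise.

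Named genes were the 15 highest and 15 lowest fold changes among called genes with a symbol and no overlap, the 5 called genes with the highest level in each direction, and for each list its first 4 genes and the 4 with the smallest p. Others are marked as chosen after their values were seen. The genes, lists and comparisons were chosen with earlier results of these data known. Gene positions are from GENCODE on GRCm39, where 700 identifiers had no entry. Alternatives were DESeq2 1.42.0, limma 3.58.1 (voomWithQualityWeights), other scalings, filters, samples and thresholds, a replicate block, a Y-linked covariate, and each library left out in turn. Figures were drawn with Matplotlib 3.10.9. A gene result withheld for evaluation is not reported here.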

Additional observations from a re-analysis of the deposited data

How the results depend on the processing

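The number of genes of at least 5 CPM called in SeS RA, 101 higher and 53 lower, was 432 and 249 in DESeq2, 1010 and 551 in limma's voomWithQualityWeights, 20 and 13 with only the 6 libraries compared, 168 and 141 with only the 12 RA libraries, 210 and 113 with a Y-linked covariate, 413 and 194 with SeS O2 PN1 replicate 2 moved to SeS RA PN1, and 43 and 32 at a log2 fold change above 1. Lower calls were 84 without the filter and 109 with only genes of at least 5 CPM tested. Leaving out a library gave 0 to 203 higher and 0 to 89 lower. Over all genes tested, 163 higher and 78 lower became 539 and 356 in DESeq2, 1269 and 794 in voomWithQualityWeights, 20 and 15 with 6 libraries, 287 and 179 with the covariate, 554 and 329 with the library moved, and 104 and 50 above 1, with 170 lower in the 12 RA libraries and 0 to 265 and 0 to 141 without a library. The fits with fewer samples have fewer degrees of freedom. For the other changes the cause was not tested.

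In SeD RA, 1271 calls became 626 with library totals, 749 with the upper quartile, 764 without the filter, 140 with only genes of at least 5 CPM, 3514 in voomWithQualityWeights, 608 in the 12 RA libraries, 44 above 1 and 137 to 2296 without a library. In SeS O2, 27 calls became 42 with RLE factors, 46 with only genes of at least 5 CPM, 212 in DESeq2, 1025 in voomWithQualityWeights, 11 with the library moved, 12 above 1 and 7 to 18 without a library. The 2 differences in age step, with 0 calls, had 143 and 56 in DESeq2 and 641 and 643 in voomWithQualityWeights, with 1 for the SeD difference in the 12 RA libraries, and 0 to 105 and 0 to 1 without a library.

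Libraries with the same replicate number were not alike throughout at PN1 and PN3. Their r was -0.0111, 0.429 and -0.289 for replicates 1, 2 and 3. The highest r, 0.614, was between PN1 replicate 1 and PN3 replicate 3, so the number was not taken as a pairing. With a replicate block the counts at 5 CPM or more were 91 and 42. No named gene changed direction. Over 97 named called genes and their alternatives, 1390 of 1933 values kept the call and 543 lost it. Precision is limited by 3 libraries an age, with a common coefficient of variation of 0.263 over all 24 libraries.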
